A study of Homo sapiens with 28 samples.

Results

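The genes described here encode the proteins of the cytosolic ribosome. They were chosen by name alone from the deposited expression table: a symbol of RPL or RPS with a number and at most a letter or copy suffix (as in RPL7L1), or RPLP0, RPLP1, RPLP2 or RPSA. Of 35488 genes in the table, 83 met this rule, 51 for the large subunit and 32 for the small subunit. All 83 passed the filter on low values, a mean of at least 10 normalised reads over the 28 libraries. Processed pseudogenes named after a member, 462 rows, were kept apart from the members.

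The cells were SK-N-MC, an established Ewing sarcoma line, carrying a doxycycline-inducible short hairpin RNA and given 100 ng/ml doxycycline for 24 or 48 h. At each time 5 libraries carried shScramble, a scrambled control hairpin, 3 carried shFLI1, against FLI1, and 3 each carried shCHD4#1 or shCHD4#2, hairpins against the chromatin remodeller CHD4. All comparisons at a time share the same 5 shScramble libraries. At 48 h the genotype label of shScramble names a CHD4 knockdown; titles and treatment labels say otherwise and were followed. Samples are labelled as biological replicates, and nothing says that they came from separate cultures, so the p-values measure the spread between these samples, which may be technical.

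A ribosome needs 1 copy of nearly every ribosomal protein, and the cell makes these proteins from some of its most abundant messenger RNAs. Most of these messages begin with a C followed by a run of pyrimidines, the 5′ terminal oligopyrimidine or TOP motif, through which growth signalling sets their translation. A few members have a paralog, a second gene for a closely related protein that can take the same place in the ribosome and often differs between tissues. In Ewing sarcoma cells the 3′ part of FLI1 is joined to EWSR1, and the fusion protein acts as an ETS-family transcription factor.

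To show where these messages begin, 60 bases around the annotated start are printed for paralogs, their partners, stalk proteins and RPL11, RPL19 and RPS26, with 40 bases before the start in lower case and the first 20 bases of the transcript in capitals. They come from RefSeq on GRCh38.p14. The windows are RPL22 at chr1:6199576-6199635 (minus strand), RPL22L1 at chr3:170870176-170870235 (minus), RPS27 at chr1:153990722-153990781 (plus), RPS27L at chr15:63157458-63157517 (minus), RPL7L1 at chr6:42879576-42879635 (plus), RPS26 at chr12:56041878-56041937 (plus), RPLP0 at chr12:120201092-120201151 (minus), RPLP1 at chr15:69452778-69452837 (plus), RPLP2 at chr11:809927-809986 (plus), RPL11 at chr1:23691766-23691825 (plus), RPL19 at chr17:39200243-39200302 (plus) and RPL39 at chrX:119791611-119791670 (minus).
RPL22: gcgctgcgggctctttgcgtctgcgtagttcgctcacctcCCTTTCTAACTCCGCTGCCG
RPL22L1: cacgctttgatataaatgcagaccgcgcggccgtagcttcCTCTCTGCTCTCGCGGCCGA
RPS27: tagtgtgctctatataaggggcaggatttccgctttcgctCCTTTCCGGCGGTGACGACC
RPS27L: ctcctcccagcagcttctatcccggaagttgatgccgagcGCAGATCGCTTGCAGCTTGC
RPL7L1: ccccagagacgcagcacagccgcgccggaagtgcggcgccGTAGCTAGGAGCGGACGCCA
RPS26: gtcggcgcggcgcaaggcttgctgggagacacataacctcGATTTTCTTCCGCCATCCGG
RPLP0: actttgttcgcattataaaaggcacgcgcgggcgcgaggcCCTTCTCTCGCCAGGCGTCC
RPLP1: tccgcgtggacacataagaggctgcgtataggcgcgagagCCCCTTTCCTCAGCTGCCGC
RPLP2: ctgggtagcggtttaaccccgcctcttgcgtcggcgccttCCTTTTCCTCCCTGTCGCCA
RPL11: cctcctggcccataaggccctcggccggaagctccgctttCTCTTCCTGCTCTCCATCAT
RPL19: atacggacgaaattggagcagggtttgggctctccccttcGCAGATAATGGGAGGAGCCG
RPL39: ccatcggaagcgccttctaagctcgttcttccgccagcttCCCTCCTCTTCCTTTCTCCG

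Counted from the annotated start, the unbroken pyrimidine run was 19 bases long in RPL39, the longest among the members, 13 in RPLP2, 11 in RPLP1, 9 in RPLP0, 8 in RPL11, 7 in RPL22 and RPS27, and 6 in RPL22L1. The annotated starts of RPS27L, RPL7L1, RPS26 and RPL19 do not begin with a C. Of the 83 members 66 matched an entry in the promoter table, with 82 annotated starts between them. A C followed by at least 4 more bases that are C or T stood at 47 of those 82 starts, 57.3%, against 4.07% of all 35116 starts in the table. A core of the ETS family motif, CCGGAA or TTCCGG, searched on both strands from 250 bases before to 50 after the start, was present at 43 of the 82 starts, 52.4%, against 17.2% of all starts. The motif TATAAA was present at 7.32% against 11.5%, and the E box CACGTG at 6.10% against 7.26%, each on both strands. Each of these words holds C or T at an end on at least 1 strand and can share bases with a pyrimidine run. These matches describe letters and show neither binding nor start-site use.

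Member messages took between 2.83% and 4.13% of all reads in a library, and between 3.60% and 4.98% of reads outside mitochondrial genes. Levels between genes are compared as normalised reads per kb of the shortest principal transcript. By that measure RPS18, a small-subunit protein of the head, was highest at 93322 per kb, followed by RPL41 at 58638, RPL35A at 57065, RPS12 at 56162 and RPS2 at 55987. The lowest 5 were paralogs: RPL3L at 9.10 per kb, RPS27L at 279, RPL22L1 at 879, RPL39L at 988 and RPL26L1 at 1590. The sixth paralog in the table, RPL7L1, ranked 77 of 83 at 4304 per kb. This order depends on the length used. Per kb of all annotated exons together RPS12 ranked 1, RPS18 2, RPL35A 24, RPL26L1 78 and RPS29 80. The principal transcript used is 6434 bases long for RPS27L and 3769 for RPL7L1, beside 613 for RPS18, which lowers the levels of the former genes. RPL3L, known as a muscle form of RPL3, had as few as 3 reads in a library.

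The paralogs were also among the members that varied most over the 28 libraries. The coefficient of variation was 81.0% for RPL3L, 39.8% for RPL22L1, 38.8% for RPS27L, 28.6% for RPS26 and 27.1% for RPL7L1, against 10.3% for RPL15. Within a group of replicates the median coefficient of variation over the 83 members lay between 7.51% (shCHD4#1, 48 h) and 17.9% (shScramble, 24 h).

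Libraries fell into a pair of kinds that the labels do not name and that touch these genes directly. Reads on member pseudogenes came to 3.07% to 3.39% of member reads in 12 libraries, those numbered 1 or 2 in the shScramble, shCHD4#1 and shCHD4#2 groups, called the first kind here, and to 1.91% to 2.22% in the remaining 16 libraries, the second kind, which include all shFLI1 libraries. The members' share of non-mitochondrial reads also moved with the kind: in shScramble it was 3.80% and 4.06% in the first kind and 4.25% to 4.98% in the second kind at 24 h, and 3.94% and 4.13% against 4.29% to 4.50% at 48 h. For this reason each fit carried a term for library kind. Single members differ in how much they share with pseudogenes. RPS26 has 16 pseudogene rows. Of the reads on RPS26 and those rows together, the rows held 13.4% in the first kind and 8.47% in the second. For RPL7, with 29 rows, the shares were 13.1% and 6.73%. Such members are uncertain to the extent that reads could be split between copies, while RPLP2 and 5 of the 6 paralogs in the table have no pseudogene row.

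**Figure D1:**
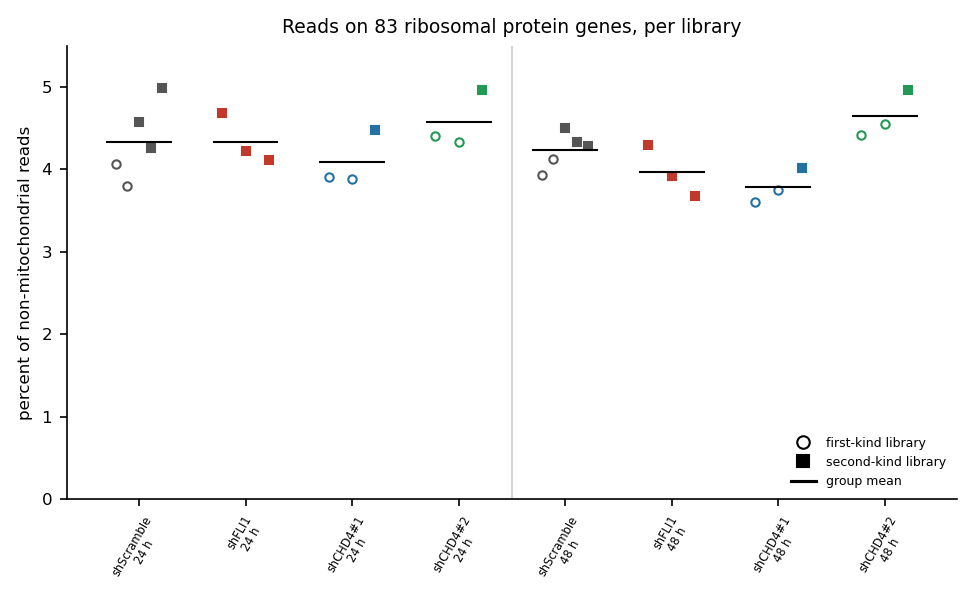
Share of non-mitochondrial reads on the 83 ribosomal protein genes in each library (percent, vertical axis) by hairpin and time; white circles are libraries of the first kind, filled squares of the second kind, and the bar is the group mean. The 3 shCHD4#1 libraries at 48 h (3.60% to 4.01%) lie below the 3 shCHD4#2 libraries (4.42% to 4.96%), and second-kind shScramble libraries lie above first-kind ones at both times.

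The question of the shFLI1 arm is what changes when the Ewing fusion's FLI1 part is lowered. FLI1 itself fell from 4153 ± 408 normalised reads (SD, n = 5) to 1856 ± 148 (n = 3) at 24 h and from 3783 ± 454 to 1669 ± 141 at 48 h. Under the deposited scaling, ribosomal protein messages were mostly lower with shFLI1. At 24 h 43 of the 83 members fell and 1 rose, against 28.6% of the 21025 tested genes called lower and 28.2% called higher (limma, Benjamini-Hochberg adjusted p under 0.05). At 48 h 57 fell and 4 rose, against a background of 34.5% lower and 33.7% higher. The median log2 fold change of the members was −0.26 at 24 h and −0.32 at 48 h, folds of 0.837 and 0.801, where the median of all tested genes was near 0.

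Most of these shifts were small. At 24 h the quartiles of the members were −0.36 and −0.16 on the log2 scale, and 75 of 83 were within 0.5 of no change. At 48 h the quartiles were −0.47 and −0.21, and 65 were within 0.5. Both subunits were involved: 28 of 51 large-subunit members (median −0.28) and 15 of 32 small-subunit members (median −0.25) fell at 24 h, and 37 (median −0.36) and 20 (median −0.30) at 48 h. Of the 43 members lower at 24 h, 41 were lower again at 48 h. All 3 shFLI1 libraries were below every second-kind shScramble library for 31 of the members that fell at 24 h and for 52 at 48 h. The share of all tested genes separated in this way was not computed, so these counts do not single out the members.

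The size of this common shift depended on scaling and on the library kind. Quantile normalisation, which gives every library the same distribution of values, moved the member median to −0.01 at 24 h and −0.08 at 48 h, beside −0.01 and −0.07 for all genes, and left 14 and 23 members lower and 7 and 16 higher. Without the library kind term 6 and 34 members were lower, and among second-kind libraries alone 28 and 50. Without shFLI1 replicate 2 the 24 h count was 26, and without shScramble replicate 5, whose member total was the highest of the group, it was 33. Mitochondrial ribosomal RNA took 18.0% to 19.9% of reads with shFLI1 at 24 h and 22.1% to 22.5% at 48 h, against 15.2% to 17.8% and 16.2% to 18.0% with shScramble. When libraries were scaled to reads outside mitochondrial genes, all genes shifted by 0.16 and 0.14 and the members had medians of −0.10 and −0.19, so they stayed 0.26 and 0.33 below the median of all genes.

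**Figure D2:**
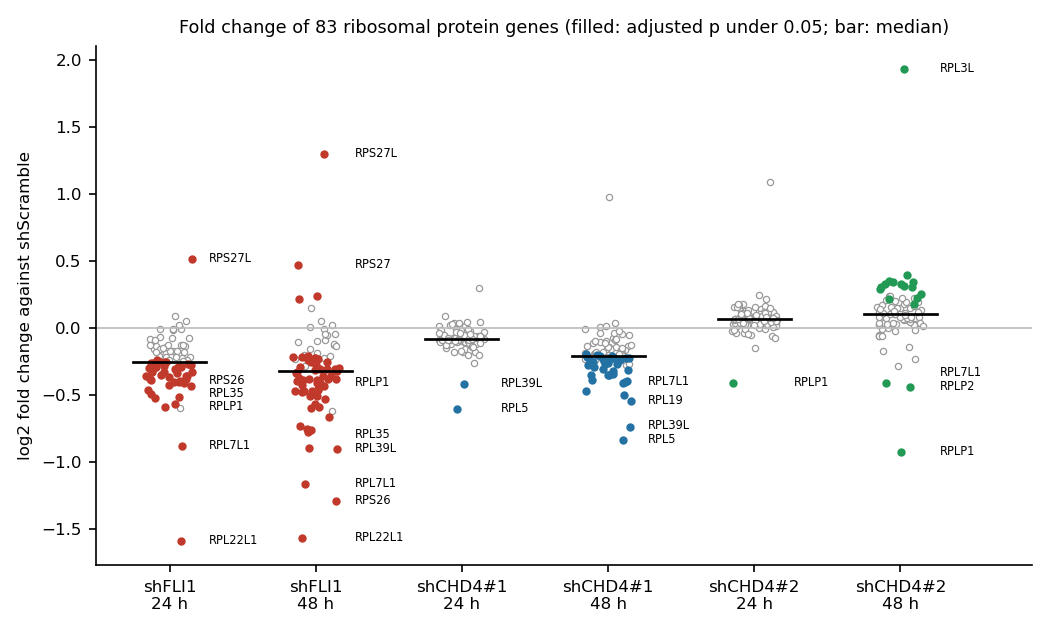
Log2 fold change of each of the 83 members against shScramble (vertical axis) for the 3 hairpins at 24 and 48 h; filled points passed the test at an adjusted p under 0.05, and the horizontal bar is the median. Medians run from −0.32 (shFLI1, 48 h) to 0.10 (shCHD4#2, 48 h), and RPL22L1 is the lowest point with shFLI1 at both times.

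Several of the largest changes with shFLI1 were in paralogs. RPL22L1, a paralog of the RNA-binding protein RPL22 (chr3:170864875-170870483, minus strand, GRCh38), had 2411, 1995, 2782, 2283 and 2924 normalised reads in the 24 h shScramble libraries and 979, 716 and 774 with shFLI1. At 48 h it had 2503, 1694, 2118, 2329 and 2027 with shScramble and 643, 714 and 806 with shFLI1. The groups did not overlap at either time, and every shFLI1 library was below every other library of its time. The log2 fold change was −1.59 ± 0.16 (SE, adjusted p 5.36e-07) at 24 h and −1.57 ± 0.17 (adjusted p 1.99e-06) at 48 h. RPL22 itself fell by less, −0.41 ± 0.09 (adjusted p 0.00123) and −0.46 ± 0.07 (adjusted p 2.81e-05).

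RPL7L1, a relative of RPL7 with a role in ribosome assembly (chr6:42879618-42889925, plus strand), had 18166, 16850, 22286, 20245 and 27006 normalised reads in 24 h shScramble and 13922, 11462 and 11352 with shFLI1. At 48 h the values were 17414, 16636, 20946, 20453 and 20060 against 9492, 9210 and 8283. Every shFLI1 library was below every shScramble library at both times. The log2 fold change was −0.89 ± 0.10 (adjusted p 2.25e-06) and −1.17 ± 0.07 (adjusted p 6.07e-09). RPL7 itself, whose pseudogenes share many reads, gave −0.18 (adjusted p 0.146) and −0.23 (adjusted p 0.0436), and the 48 h call was lost under quantile normalisation (−0.01, adjusted p 0.924) and without any 1 of 6 libraries, shFLI1 replicate 3 having the most effect (adjusted p 0.267).

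RPS27L moved the other way. This paralog of RPS27, known as a p53 target (chr15:63125872-63158021, minus strand), had 1359, 1248, 1583, 1365 and 1955 normalised reads in 24 h shScramble and 2496, 2139 and 2196 with shFLI1. At 48 h it had 1350, 1319, 1475, 1352 and 1602 against 3844, 3732 and 3065. The shFLI1 libraries were above all shScramble libraries at both times. It rose by a log2 fold change of 0.51 ± 0.10 (adjusted p 0.000595) and 1.29 ± 0.09 (adjusted p 2.6e-08). RPS27, a small-subunit zinc finger protein, gave 0.09 (adjusted p 0.478) at 24 h and rose at 48 h, from 15784 to 19046 normalised reads over the shScramble libraries to 29844, 25957 and 19490, a log2 fold change of 0.46 ± 0.11 (adjusted p 0.00168). The other members that rose at 48 h, RPS20 (0.21) and RPL28 (0.24), are named here because the count is small, after their values were seen.

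RPL39L and RPL26L1 changed at 48 h without a call at 24 h. RPL39L, a paralog of the exit-tunnel protein RPL39 (chr3:187120948-187180908, minus strand), had 912, 840 and 566 normalised reads with shFLI1 at 24 h beside 730, 708, 763, 692 and 870 in shScramble, and 397, 416 and 351 at 48 h beside 869, 691, 756, 722 and 696. The ranges overlapped at 24 h (−0.01, adjusted p 0.956) and were apart at 48 h (−0.90 ± 0.12, adjusted p 1.64e-05). RPL39 gave −0.07 (adjusted p 0.608) and −0.05 (adjusted p 0.68). RPL26L1 gave −0.18 (adjusted p 0.244) and −0.66 ± 0.11 (adjusted p 9.76e-05), and RPL26 −0.41 (adjusted p 0.0013) and −0.51 (adjusted p 4.26e-05). RPL3L was at 4.15 to 14.9 normalised reads with shFLI1 at 48 h and 8.93 to 16.8 in shScramble and passed no test there, while RPL3 fell by 0.27 and 0.25 on the log2 scale, calls that were lost without shFLI1 replicate 3 (adjusted p 0.116 and 0.117) and without shScramble replicate 3 (adjusted p 0.0612 and 0.0581), and at 24 h also without shFLI1 replicate 2 (adjusted p 0.0559) or shScramble replicate 5 (adjusted p 0.0669). RPL10 passed no test with shFLI1 at either time.

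**Figure D3:**
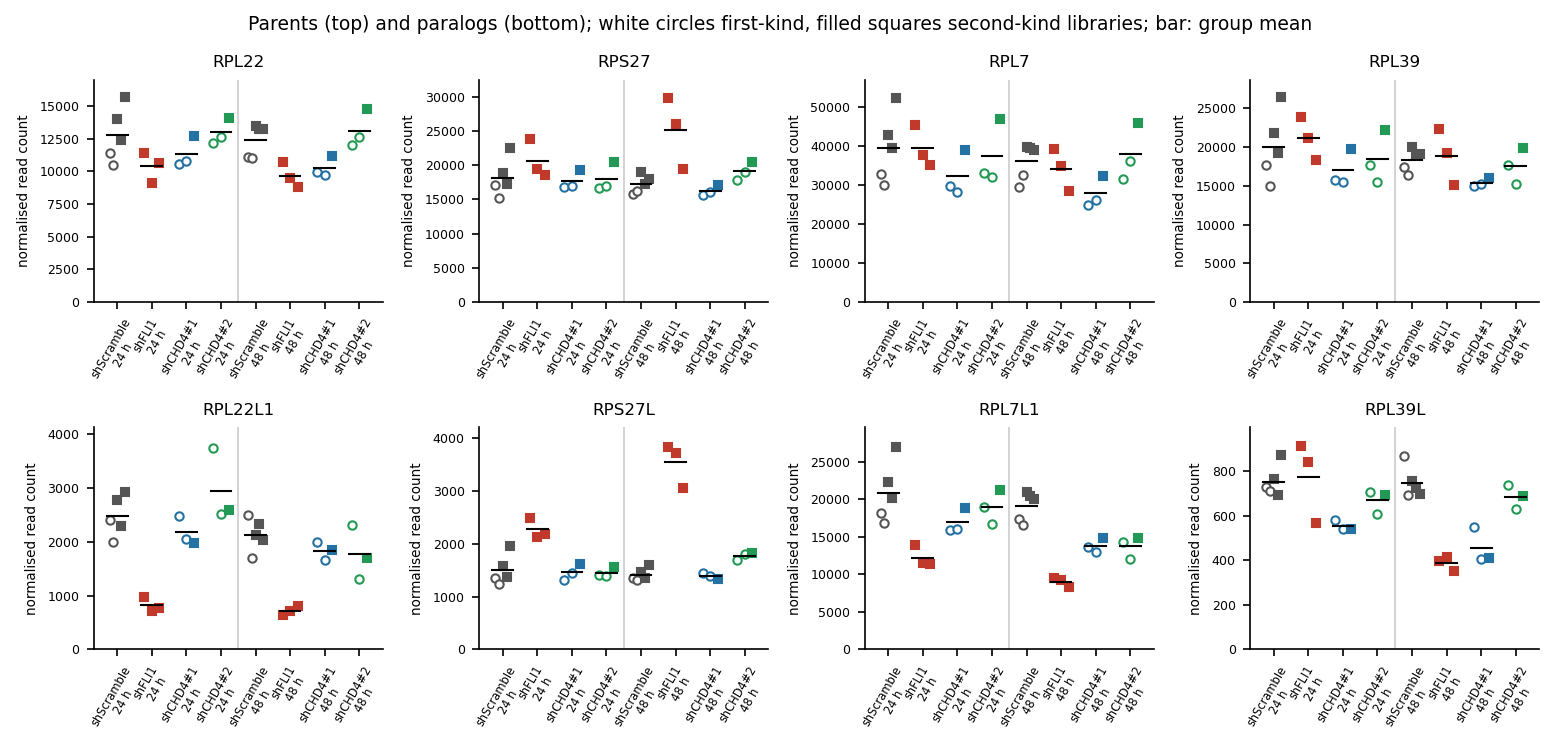
Normalised reads (vertical axis, from 0) of paralogs and their partners in each library by hairpin and time; white circles are first-kind libraries, filled squares second-kind libraries and the bar is the group mean. RPL22L1 and RPL7L1 are lowest and RPS27L highest in the shFLI1 libraries at both times, and RPL39L is low with shFLI1 only at 48 h.

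Among members without a paralog, RPS26 and RPL35 fell most at 48 h. RPS26, a small-subunit protein at the mRNA exit site (chr12:56041351-56044697, plus strand), had 8041, 7452, 12074, 10118 and 14517 normalised reads in 24 h shScramble and 9912, 8900 and 7205 with shFLI1, and 8246, 7037, 11704, 10086 and 11194 against 4684, 4331 and 3715 at 48 h. At 24 h the shFLI1 libraries were all below the second-kind shScramble libraries (10118 to 14517). They lay on both sides of the first-kind ones (8041 and 7452). At 48 h they were far below all shScramble libraries. The log2 fold changes were −0.43 ± 0.12 (adjusted p 0.00652) and −1.30 ± 0.12 (adjusted p 2.61e-07). RPL35, a large-subunit protein near the exit tunnel, had 17735, 17472, 20836, 18902 and 19783 normalised reads in 48 h shScramble and 11136, 10163 and 10236 with shFLI1, with no overlap. RPL35 fell by 0.51 on the log2 scale at 24 h (adjusted p 0.000129) and by 0.90 at 48 h (adjusted p 1.17e-08). RPS16, whose shFLI1 values of 3240, 3392 and 3730 at 24 h lie below the second-kind shScramble libraries (4695 to 7175) and near the first-kind ones (2499 and 3543), gave −0.57 ± 0.17 (adjusted p 0.00888).

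The stalk of the large subunit, which recruits the translation GTPases, is built from RPLP0, its base, and dimers of RPLP1 and RPLP2. RPLP0 had 61728, 61186, 71719, 65644 and 68029 normalised reads in 48 h shScramble and 85722, 72212 and 56960 with shFLI1, values that spread to both sides of the control range. Its log2 fold change was 0.05 at both times (adjusted p 0.76 and 0.7). RPLP1 had 34421, 26424 and 39823 in the second-kind shScramble libraries at 24 h, 26270 and 20866 in the first kind, and 19417, 19724 and 24472 with shFLI1. The shFLI1 libraries were below all second-kind controls. RPLP1 gave −0.60 ± 0.14 (adjusted p 0.00164) at 24 h and −0.42 ± 0.16 (adjusted p 0.0316) at 48 h, and RPLP2 −0.37 (adjusted p 0.0108) and −0.40 (adjusted p 0.0169). The 48 h RPLP1 call was lost without shFLI1 replicate 1 (adjusted p 0.0535) or 2 (adjusted p 0.113) or shScramble replicate 3 (adjusted p 0.0853) or 5 (adjusted p 0.0681), and the RPLP2 call without shFLI1 replicate 3 (adjusted p 0.0671) or shScramble replicate 3 (adjusted p 0.0536).

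RPL5 and RPL11 join 5S ribosomal RNA in a particle that can also bind MDM2, the ubiquitin ligase of p53. With shFLI1 RPL5 had 33692, 26056 and 28916 normalised reads at 24 h, beside 36604, 33771 and 44024 in second-kind and 29630 and 27627 in first-kind shScramble. Its log2 fold change was −0.34 (adjusted p 0.0105) at 24 h and −0.36 (adjusted p 0.000974) at 48 h, and −0.08 and −0.09 under quantile normalisation, where neither passed (adjusted p 0.299 and 0.205). Without shFLI1 replicate 2 the 24 h value was −0.25 (adjusted p 0.0711). RPL11 had 25852, 22965 and 23852 at 48 h against 28045 to 37201 in shScramble, with no overlap, and gave −0.41 (adjusted p 0.0019) and −0.53 (adjusted p 3.67e-06).

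Whether the shFLI1 change differed between 24 and 48 h was tested as an interaction over both times. The change was more negative at 48 h for 5 of the 83 members and more positive for 1, against 12.8% and 10.4% of all tested genes, and the median difference of the members was −0.05. RPL39L differed by −0.89 (adjusted p 0.00123), RPS26 by −0.86 (adjusted p 0.000891), RPL26L1 by −0.48 (adjusted p 0.0448), RPL35 by −0.39 (adjusted p 0.00815) and RPS7, a small-subunit protein, by −0.35 (adjusted p 0.0183). RPS27L differed by 0.78 (adjusted p 0.000245). The RPL26L1 call was lost without any 1 of 10 single libraries, shFLI1 24 h replicate 1 among them (adjusted p 0.147).

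The CHD4 hairpins lowered CHD4 to similar levels, from 11550 ± 1236 normalised reads (SD, n = 5) to 2990 ± 240 with shCHD4#1 and 3075 ± 351 with shCHD4#2 at 24 h, and from 11605 ± 1563 to 3189 ± 267 and 2750 ± 44.1 at 48 h. The counts of ribosomal protein genes called were not alike for the hairpins. With shCHD4#1 at 24 h 2 of 83 members fell and 0 rose, against 12.1% and 9.48% of tested genes, with a median log2 fold change of −0.09. At 48 h 35 members fell and 0 rose, against 18.3% lower and 15.6% higher, with a median of −0.21, a fold of 0.863. All 35 had their shCHD4#1 libraries below the shScramble libraries of the same kind. The share of all tested genes separated in this way was not computed. Of the 35, 24 were large-subunit and 11 small-subunit members.

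The main fit does not pair libraries by replicate number, and the shCHD4#1 count at 48 h depended on the fit. It was 49, with 1 higher, when only the shCHD4#1 and shScramble libraries were fitted, 13 with the replicate number as a block, 23 without the kind term, 15 among second-kind libraries alone, where shCHD4#1 has 1 library and its spread is assumed from the other groups, 2 among first-kind libraries alone, and 14 with 1 higher under quantile normalisation. Without shCHD4#1 replicate 3 it was 18, and without replicate 1 or shScramble replicate 3 it was 23.

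RPL5 carried the largest fall with shCHD4#1. It had 29630, 27627, 36604, 33771 and 44024 normalised reads in 24 h shScramble, 20540, 19351 and 23115 with shCHD4#1, and 32206, 33746 and 40973 with shCHD4#2. At 48 h it had 26216, 29139, 35832, 35154 and 34084 with shScramble, 16384, 16627 and 17954 with shCHD4#1, and 31704, 32431 and 39850 with shCHD4#2. The shCHD4#1 libraries were below all others at both times, and the shCHD4#2 libraries were within the shScramble range, except for replicate 3 at 48 h, which was above it. RPL5 (chr1:92831983-92841924, plus strand) fell with shCHD4#1, with log2 fold changes of −0.61 ± 0.10 (adjusted p 0.000549) and −0.83 ± 0.08 (adjusted p 5.54e-06), and gave 0.15 (adjusted p 0.294) and 0.19 (adjusted p 0.0555) with shCHD4#2. The 24 h call with shCHD4#1 was lost among second-kind libraries alone, where shCHD4#1 has 1 library. The 48 h call with shCHD4#1 held in each of 20 refits, including first-kind libraries alone (−0.74, adjusted p 0.021) and second-kind libraries alone (−0.96, adjusted p 0.00137), where shCHD4#1 has 1 library and its spread is assumed to equal that of the other groups.

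Its partner RPL11 had 24861, 23932 and 28208 normalised reads with shCHD4#1 at 48 h, below the same-kind shScramble libraries, and fell by 0.27 on the log2 scale (adjusted p 0.00354). With the replicate block that call was lost (adjusted p 0.0708). RPL39L had 550, 406 and 412 normalised reads at 48 h against 691 to 869 in shScramble, with no overlap, and gave −0.74 ± 0.12 (adjusted p 0.000386), after −0.42 ± 0.13 (adjusted p 0.0344, and 0.0857 with the block) at 24 h. RPL19, a protein at the subunit interface, had 24601, 22998 and 27318 against 34749, 31348, 45286, 40959 and 42398, again without overlap, and gave −0.55 ± 0.10 (adjusted p 0.00102).

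RPL36 fell with shCHD4#1 at 48 h by 0.47 on the log2 scale (adjusted p 0.000419) and RPL7L1 by 0.41 (adjusted p 0.000592). The 48 h calls of RPL22 (−0.20, adjusted p 0.0245), RPL26 (−0.29, adjusted p 0.00795), RPL3 and RPL7 were lost with the replicate block (adjusted p 0.206, 0.093, 0.177 and 0.218). No member of the stalk passed the test with shCHD4#1: RPLP0 gave −0.17 (adjusted p 0.252), RPLP1 −0.04 and RPLP2 values inside its control range at 48 h.

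With shCHD4#2 few members changed at 24 h: 1 fell and 0 rose, against 12.9% and 9.33% of tested genes, with a median of 0.06. At 48 h 15 rose and 3 fell, against 22.3% higher and 23.7% lower, with a median of 0.10, a fold of 1.07. Of the 15, 12 were large-subunit members. The number that rose was 3 with the replicate block, 6 without the kind term, 4 without shCHD4#2 replicate 2 or 3, 9 without shScramble replicate 2 and 10 without replicate 1. Scaling moved it the other way, to 48 when libraries were scaled to reads outside mitochondrial genes and 64 under quantile normalisation. At 24 h the same scalings gave 15 and 33 members higher and 0 lower. The share of all tested genes called under these scalings is not given here. At 48 h the member median was 0.0999 and 0.243 above that of all tested genes, beside 0.0989 in the main fit. At 24 h it was 0.0636 and 0.159 above, beside 0.0623. The former scaling thus hardly moved the members relative to all genes.

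Among the stalk proteins 1 of 3 fell with shCHD4#2 at 24 h and 2 of 3 at 48 h. RPLP1 (chr15:69452784-69456194, plus strand) had 26270, 20866, 34421, 26424 and 39823 normalised reads in 24 h shScramble and 20654, 18346 and 21909 with shCHD4#2. At 48 h it had 26350, 20260, 32805, 27256 and 30770 against 16895, 9506 and 15346. The groups overlapped slightly at 24 h and were apart at 48 h. RPLP1 fell by −0.41 ± 0.13 (adjusted p 0.0367) at 24 h, a call lost without shCHD4#2 replicate 2 (adjusted p 0.109) or 3 (adjusted p 0.262) or shScramble replicate 1 (adjusted p 0.103) or 3 (adjusted p 0.0663), and by −0.93 ± 0.15 (adjusted p 0.000306) at 48 h. RPLP2 had 13746, 8510 and 12892 normalised reads at 48 h against 14759, 12886, 20004, 17250 and 18399, lowest in the same replicate 2, and gave −0.44 ± 0.13 (adjusted p 0.0132), lost without replicate 2 (adjusted p 0.0671) or 3 (adjusted p 0.0784). RPLP0, with 59637, 49807 and 60857 against 61186 to 71719, lay below the range of all shScramble libraries and gave −0.17 (adjusted p 0.199).

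The members that rose with shCHD4#2 at 48 h were led by RPL3L, at 55.1, 74.1 and 34.7 normalised reads against 8.93 to 16.8 in shScramble, with no overlap. Its log2 fold change was 1.93 ± 0.37 (adjusted p 0.000954), and with shCHD4#1 it was 0.98 (adjusted p 0.0583), from 21.6, 31.2 and 27.7 normalised reads. RPL3 had 31649 to 54028 normalised reads over all libraries, so RPL3L remained a trace beside it. RPL14, a large-subunit protein, had 14733, 15736 and 17150 against 11666, 11338, 13250, 12848 and 13126, with no overlap, and rose by 0.39 ± 0.07 (adjusted p 0.00032).

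RPS26 rose by 0.35 with shCHD4#2 at 48 h (adjusted p 0.021), RPS27L by 0.34 (adjusted p 0.00729), RPL26L1 by 0.34 (adjusted p 0.0177) and RPL10 by 0.31 (adjusted p 0.0138), on the log2 scale. With the replicate block RPS26 (adjusted p 0.0937), RPL26L1 (adjusted p 0.116), RPL10 (adjusted p 0.0602) and RPL26 (adjusted p 0.224) did not pass. RPL7L1 fell with both hairpins at 48 h, from 16636 to 20946 normalised reads in shScramble to 13593, 12957 and 14834 with shCHD4#1 and 14338, 12074 and 14863 with shCHD4#2. All 6 hairpin libraries were below all 5 controls, and the log2 fold changes were −0.41 ± 0.07 and −0.42 ± 0.07 (adjusted p 0.000326 for shCHD4#2). RPL7L1 was the only member called lower with both hairpins at 48 h, and RPL4, RPL26 and RPL36 were called lower with shCHD4#1 and higher with shCHD4#2. RPL26 lost both calls with the replicate block. The block left 3.61% of members higher with shCHD4#2, beside 18.1% in the main fit. RPL4 and RPL36 with shCHD4#2 under the block are not given here.

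A direct comparison of the CHD4 hairpins, added after the values were seen, needs no shScramble library for its estimate. At 24 h 4 members were lower with shCHD4#1 than with shCHD4#2 and 0 higher, against 10.1% and 11.1% of tested genes. RPL5, RPL17 and RPL28 were among the 4, and the median log2 difference was −0.15. At 48 h 57 members were lower and 2 higher, against 23.3% and 23.2%, and the median difference was −0.33, a ratio of 0.798. This median stayed between −0.31 and −0.35 under the scalings tried, and all genes tested had medians near 0. With the replicate block 40 members were lower, and among first-kind or second-kind libraries alone 19 and 20, the latter with 1 library per hairpin. Both members higher with shCHD4#1 were stalk genes, RPLP1 by 0.89 ± 0.17 (adjusted p 0.000801) and RPLP2 by 0.41 ± 0.14 (adjusted p 0.0275), the latter lost with the replicate block (adjusted p 0.053).

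RPL5 differed between the hairpins at both times, by −0.76 ± 0.11 (adjusted p 0.000189) at 24 h and −1.02 ± 0.08 (adjusted p 1.55e-06) at 48 h. The 24 h call was lost among second-kind libraries alone, with 1 library per hairpin. RPL11 differed by −0.38 (adjusted p 0.000471) and RPL19 by −0.57 (adjusted p 0.000972) at 48 h. RPL7L1, in contrast, gave 0.01 ± 0.08 (adjusted p 0.946). CHD4 itself gave −0.04 (adjusted p 0.769) at 24 h and 0.21 (adjusted p 0.0552) at 48 h between the hairpins.

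**Figure D4:**
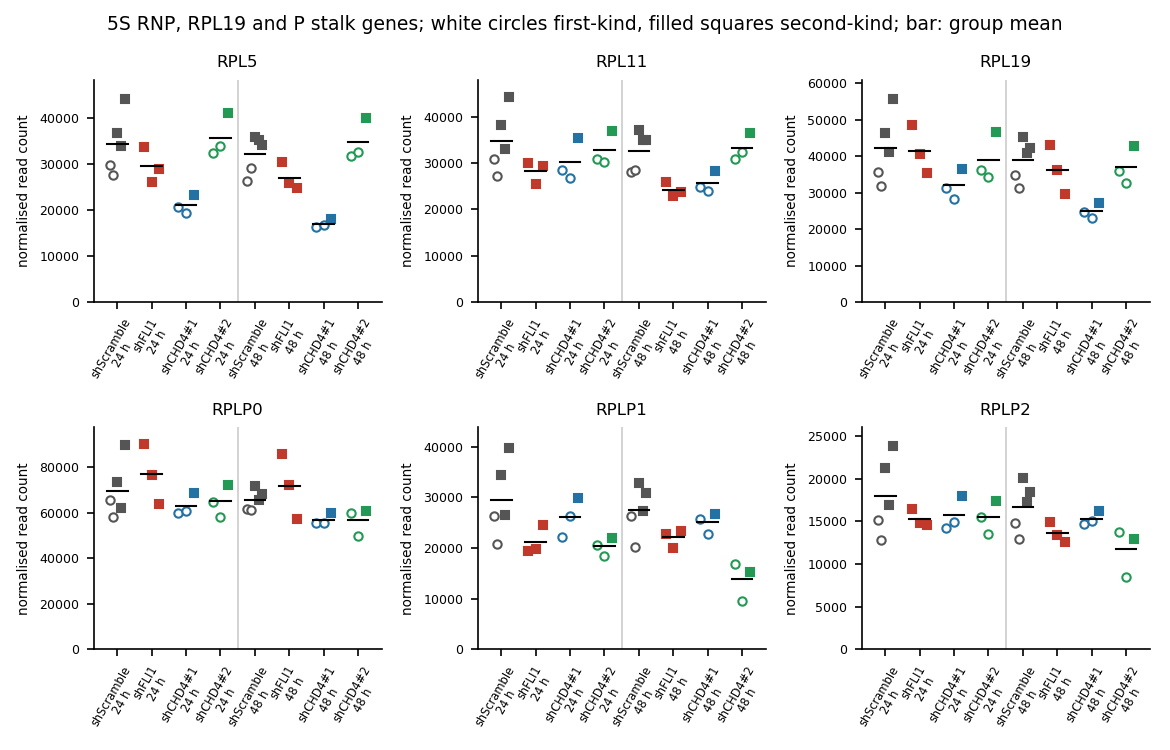
Normalised reads (vertical axis) of RPL5, RPL11, RPL19, RPLP0, RPLP1 and RPLP2 in each library by hairpin and time; white circles are first-kind libraries, filled squares second-kind libraries and the bar is the group mean. RPL5 is low in every shCHD4#1 library at both times and RPLP1 is low in the shCHD4#2 libraries at 48 h.

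Messages of the pyrimidine-run class could be set beside members without the run. The 47 members with a run at an annotated start had a median log2 fold change of −0.27 with shFLI1 at 24 h and −0.36 at 48 h, and the 19 matched members without one −0.25 and −0.31. With shCHD4#1 at 48 h the medians were −0.20 and −0.23, and with shCHD4#2 0.08 and 0.14. These are descriptions without a test.

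Other genes of the translation machinery, from fixed lists, mostly had negative medians with shFLI1 too. Of all tested genes 28.6% were lower and 28.2% higher at 24 h, and 34.5% and 33.7% at 48 h. Of 34 initiation factor genes 29 were lower at 24 h and 27 at 48 h, with 0 and 2 higher and medians of −0.63 and −0.78. EIF2S1, the alpha subunit of eIF2, had log2 fold changes of −1.11 and −1.54, and EIF2B5, of its exchange factor, −0.77 and −1.11. Of 17 other TOP messages 12 were lower at each time and 0 and 3 higher, with medians of −0.68 and −0.46, among them the small nucleolar RNA host genes SNHG1 (−1.29 and −1.47), SNHG8 (−1.20 and −1.47) and GAS5 (−1.10 and −0.97). Elongation factors were mixed, with 6 and 5 of 10 lower and 1 and 2 higher: EEF1E1, of the tRNA synthetase complex, was at −1.39 and −2.43, while EEF2K, the kinase that inhibits elongation factor EEF2, was at 0.36 and 0.92.

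Mitochondrial ribosomal proteins, a separate set made in the cytosol and imported, had 63 and 67 of 78 genes lower and 0 and 1 higher with shFLI1, with medians of −0.50 and −0.83. In the list of growth signalling genes 8 of 19 were lower and 5 higher at each time, with medians of −0.12 and −0.15. Beside these counts, 28.6% of all tested genes were lower and 28.2% higher at 24 h, and 34.5% and 33.7% at 48 h. The growth signalling genes called higher are not named here. LARP1, which binds TOP messages, was at −0.81 and −1.17, and EIF4EBP1, the repressor of cap-dependent initiation, at −0.91 and −2.18. Of 4 ribosomal proteins that the name rule leaves out, FAU, RACK1 and RPL36AL among them, 1 and 2 were lower with shFLI1. MYC, a driver of ribosomal gene transcription, fell from 17309 ± 1182 to 1940 ± 587 normalised reads at 24 h and from 17301 ± 1991 to 1816 ± 423 at 48 h, and its part in the members' values was not tested.

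With shCHD4#1 at 48 h 7 of 34 initiation factors, 5 of 17 other TOP messages and 36 of 78 mitochondrial ribosomal proteins were lower, with 0, 0 and 2 higher, beside 18.3% of all tested genes lower and 15.6% higher. The log2 fold change was −0.67 for RPL36AL, −0.37 for RACK1 and −0.51 for LARP1. With shCHD4#2 at 48 h 15 initiation factors were higher and 5 lower, and 29 mitochondrial ribosomal proteins were higher and 9 lower, beside 22.3% of all tested genes higher and 23.7% lower. Of the 17 other TOP messages 3 were higher and 3 lower with this hairpin at 24 h (median 0.09). Of all tested genes 9.33% were higher and 12.9% lower at 24 h. At 48 h 4 of the 17 were higher and 6 lower (median −0.09). NPM1, the nucleolar chaperone, had log2 fold changes of −1.90 and −2.46 at 24 and 48 h, and NAP1L1, a histone chaperone, −1.05 and −1.51. EIF3A, a subunit of initiation factor eIF3, was at −1.37 and −1.61, beside −0.03 and −0.01 with shCHD4#1. EEF1A2, an elongation factor of muscle and neurons, rose with shCHD4#2, to 0.86 and 1.68.

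The cells' identity was checked against 8 Ewing sarcoma markers, all expressed. Their summed level was 41748 to 51698 normalised reads in 24 h shScramble and 11054 to 14081 with shFLI1, and all 8 were lower with shFLI1 at both times and with shCHD4#2 at 48 h (median −1.07). Among blood cell markers CD3E reached at most 3.22 normalised reads, and PTPRC 22.4 to 333, highest with shFLI1. Of the 6 blood cell markers 2 could be tested, and with shFLI1 1 was higher and 1 lower at each time. With shCHD4#2 0 were higher and 1 was lower at each time. The summed level of 5 epithelial markers was 8243 to 10696 normalised reads in 24 h shScramble and 9385 to 14812 at 48 h, against 4002 to 5140 and 4683 to 5063 with shFLI1, 7130 to 10379 and 5647 to 9728 with shCHD4#1, and 5492 to 9401 and 4066 to 6023 with shCHD4#2. Of the 4 that could be tested 2 were lower with shFLI1 at 24 h, and 3 were lower and 1 higher at 48 h. With shCHD4#2 1 was lower at 24 h and 2 at 48 h. With shCHD4#1 2 were higher and 0 lower at 24 h (median 0.78), and 1 was higher and 1 lower at 48 h (median 0.72). The summed level is mostly KRT18, which had 3710 to 12854 normalised reads. The summed level of 4 endothelial markers was 28.5 to 105 in all libraries, lowest with shCHD4#2 at 48 h. The part of these markers in the members' values was not tested. In bulk RNA fewer cells of a type and less RNA per cell cannot be told apart. Read depth was 46102707 to 64775442 per library, and replicates of a group always differed beyond counting noise, with a chi-square of 8.21 to 144 per gene.

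The authors' deposited tables called fewer members. In the authors' deposited table for shFLI1 at 48 h 6 members were lower and 1 higher at an adjusted p under 0.05, with RPS26 at −1.48, RPL22L1 at −1.43, RPL7L1 at −1.25, RPL39L at −1.20 and RPS27L at 1.16 on the log2 scale. The authors' deposited tables for shCHD4#1 called 0 members at either time, with RPL5 at −0.79 and an adjusted p of 0.356 at 48 h. The authors' deposited table for shCHD4#2 at 48 h called only RPL3L, higher by 1.77 (adjusted p 0.0377), and gave RPLP1 −0.84 with an adjusted p of 0.553. The table named for shFLI1 at 24 h was not used here.

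**Figure D5:**
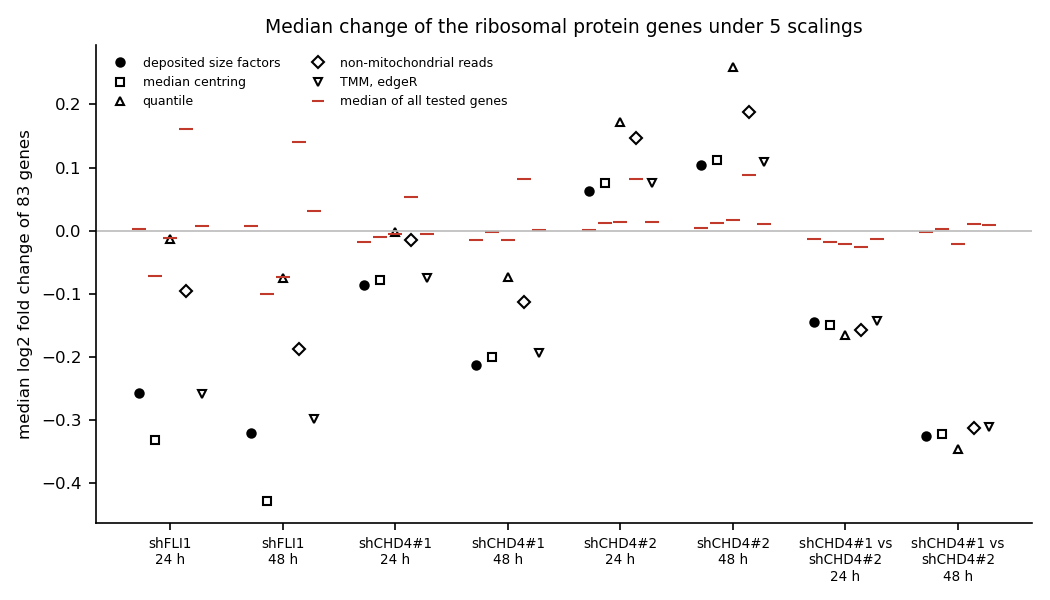
Median log2 fold change of the 83 members (black symbols) and of all tested genes (red dashes) for each comparison under the scalings tried. With shFLI1 the member median moves from −0.26 and −0.32 under the deposited scaling to −0.01 and −0.08 under quantile normalisation, while the difference between the CHD4 hairpins at 48 h stays between −0.31 and −0.35.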

How the data were processed

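RNA was measured in 28 SK-N-MC libraries. The authors deposited, in 1 table for all libraries, a signal per gene: featureCounts read counts divided by a DESeq2 size factor. The submitters' processing notes name FastQC 0.11.7, HISAT2 2.1.0, SAMtools 1.7, featureCounts 1.6.0, DESeq2 1.34.0 and GRCh38. Parameters, annotation release and strand setting were not given in the sources used here. Per the labels' protocols, total RNA was made into stranded paired-end libraries. The authors' deposited comparison tables hold log2 fold changes, a p-value and, in 1 of them, a score, used only where named.

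Whole reads were recovered for at least 99.9% of values in each library, within a tolerance of 0.02. Values, after adding a pseudocount of 1, were taken to log2 and tested by limma-trend (limma 3.58.1 in R 4.3.3) over 21025 genes with a mean of at least 10, fitted per time with all 4 groups and a term for library kind, Benjamini-Hochberg adjusted, two-sided, called at 0.05. The fold change understates the change of low genes. The kind term was used because all shFLI1 libraries are of the second kind. Members and lists were chosen with earlier results of these data known. Named members are the paralogs and their partners, stalk and 5S particle proteins, the highest and lowest 5 by level, and up to 5 rises and 5 falls per knockdown whose libraries lie outside the same-kind controls. From each other list up to 4 genes with the smallest adjusted p were eligible. Levels per kb use the shortest principal transcript of GENCODE 29 in place of the exon length planned, and positions come from the same annotation. Ensembl ids of 34232 genes were found in it. Promoter sequences are RefSeq's, GRCh38.p14.

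Replicate numbers were taken to pair the CHD4 hairpin libraries with shScramble, since every pair was above 0.1: same-numbered deviations correlated at 0.35 to 0.46 at 24 h and 0.12 to 0.55 at 48 h. Each such pair is also of the same library kind, and differently numbered libraries of the second kind correlated alike (shCHD4#1 replicate 3 with shScramble replicate 4 at 0.50, with replicate 3 at 0.45, at 24 h). In the first kind the same number correlated more. At 48 h shCHD4#1 replicate 1 gave 0.55 with shScramble replicate 1 and 0.18 with replicate 2. Replicate 2 of shCHD4#1 gave 0.21 with shScramble replicate 2 and −0.03 with replicate 1. The main fits ignore this pairing, and only the replicate block uses it. Alternatives were other scalings, edgeR 4.0.16 on recovered read counts, pseudocount 10, no filter, library kinds alone, a replicate block, members summed with pseudogenes, and each library left out. Pipelines were tested on simulated data. A few genes that these rules name are not reported here.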

Additional observations from a re-analysis of the deposited data

Results flagged for a closer look

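In the 48 h shScramble group, RPL35A was lowest in replicate 1 at 30458 normalised reads, apart from the nearest other library at 33244. It was the only such case among the 62 combinations of named member and group of 5 looked at. Chance gives about 1 in 20, so 1 case does not stand out. The members not named were not looked at.

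For 6 of 83 members the shFLI1 change differed between 24 and 48 h by a test of the difference itself, 5 of them more negative and 1 more positive at 48 h, beside 12.8% and 10.4% of all tested genes. The differences, 48 h minus 24 h on the log2 scale, were −0.89 for RPL39L, −0.86 for RPS26, −0.48 for RPL26L1, −0.39 for RPL35, −0.35 for RPS7 and 0.78 for RPS27L.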

How the results depend on the processing

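Counts below are members higher and lower. Without the kind term they were 1 and 6 for shFLI1 at 24 h, 3 and 34 at 48 h, 0 and 1 for shCHD4#1 at 24 h, 0 and 23 at 48 h, 0 and 0 for shCHD4#2 at 24 h, 6 and 3 at 48 h, 1 and 3 for the shFLI1 time difference, 0 and 1 between the CHD4 hairpins at 24 h and 1 and 35 at 48 h. In second-kind libraries alone they were, in the same order, 1 and 28, 2 and 50, 0 and 0, 0 and 15, 0 and 0, 1 and 3, 1 and 3, 0 and 0, and 1 and 20, and in first-kind libraries alone, for the CHD4 comparisons, 0 and 1, 0 and 2, 0 and 0, 3 and 0, 0 and 1, and 0 and 19. With the replicate block they were 1 and 6, 2 and 25, 0 and 1, 0 and 13, 0 and 1, 3 and 3, 1 and 4, 0 and 4, and 1 and 40. The shFLI1 libraries did not pair with shScramble (correlations −0.15 to 0.04). Median centring gave 1 and 55 and 2 and 67 with shFLI1, 0 and 28 with shCHD4#1 at 48 h, 1 and 1 with shCHD4#2 at 24 h and 1 and 6 for the time difference. Quantile normalisation gave 7 and 14, 16 and 23, 0 and 3, 1 and 14, 33 and 0, 64 and 3, 4 and 8, 0 and 26, and 2 and 61. Scaling to reads outside mitochondrial genes gave 3 and 23, 5 and 41, 0 and 2, 1 and 20, 15 and 0, 48 and 3, 2 and 10, 0 and 18, and 2 and 58. With edgeR they were 1 and 47, 4 and 53, 0 and 2, 1 and 29, 2 and 1, 16 and 3, 1 and 6, 0 and 5, and 2 and 56. A pseudocount of 10 gave 1 and 33 with shCHD4#1 at 48 h, 1 and 1 with shCHD4#2 at 24 h and 0 and 3 between hairpins at 24 h. No filter gave 2 and 54 with shFLI1 at 48 h, 0 and 1 with shCHD4#1 and 0 and 0 with shCHD4#2 at 24 h, and 0 and 2 and 2 and 51 between the hairpins. With only the groups compared they were 1 and 33, 2 and 53, 0 and 2, 1 and 49, 0 and 0, 22 and 4, 1 and 22 and 1 and 58 (no such fit for the time difference). For the CHD4 hairpins the fits by kind have fewer libraries, and otherwise the cause was not tested.

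Leaving out 1 library gave 1 higher and 26 to 57 lower with shFLI1 at 24 h, 2 to 5 and 43 to 68 at 48 h, 0 and 1 to 2 with shCHD4#1 at 24 h, 0 and 18 to 32 at 48 h, 0 to 2 and 0 to 1 with shCHD4#2 at 24 h, 4 to 19 and 2 to 4 at 48 h, 1 to 2 and 3 to 10 for the time difference, and 0 and 1 to 3 (24 h) and 1 to 2 and 42 to 55 (48 h) between the hairpins. Where a group kept 1 library of a kind, its spread was taken from the other groups. Of 63 called results of named members 22 kept their call in every refit run, and of 1243 refits 1054 kept it, 188 lost it and 1 reversed. RPL7 with shFLI1 at 48 h was 0.00476 (adjusted p 0.981) with the replicate block, and RPL39 was 0.21 (adjusted p 0.0363) under quantile normalisation. Of 87 results not called, 56 of 1810 refits made a call. Among these results the replicate block changed no CHD4 call beyond those printed. Members were followed only in the comparisons that named them, so RPL36 with shCHD4#2 was not among these results.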

Other observations

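Read-through rows that join a member with a neighbouring gene were not counted as members. Their mean levels over the 28 libraries were 18276 normalised reads for RPS10-NUDT3, 9185 for RPL17-C18orf32 and 9004 for RPL36A-HNRNPH2.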
